A study of Mus musculus with 6 samples.

Results

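The 7 genes described here are 5 keratins (*Krt7*, *Krt8*, *Krt18*, *Krt19* and *Krt79*) and 2 uroplakins (*Upk1b* and *Upk3b*), taken by symbol from the 26251 genes listed over the 6 libraries of the series. All 7 were listed in every library. The data are single cell mRNA counts (10x Genomics) from mouse gonads at E15.5 in 3 groups of 2 libraries each. Control XY gonads were testes with both alleles of *Amh* and *Inhbb* (Amh+/+; Inhbb+/+), dKO XY gonads came from XY embryos that lack both genes in every cell (Amh-/-; Inhbb-/-), and control XX gonads were ovaries with both genes intact. The paper describes the dKO XY gonads at this age as ovotestes, with ovarian tissue at their poles. All embryos were on a C57BL/6 background, and the gonads were dissociated with enzymes, frozen until the genotype was known, and thawed before capture. Both gonads of an animal were combined, and the libraries of a group are biological replicates, so the p-values below rest on the spread between 2 samples per group.

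Keratins build the intermediate filaments of epithelial cells and do so as pairs, in which a type II chain (*Krt7*, *Krt8*, *Krt79*) must join a type I chain (*Krt18*, *Krt19*). The pair of *Krt8* and *Krt18* is the first made in the embryo and is typical of simple epithelia, while *Krt7* and *Krt19* accompany it in ducts and in mesothelium, and *Krt79* is best known from the openings of hair follicles and from sebaceous ducts. Uroplakins are membrane proteins named for the surface plaques of the bladder: *Upk1b* encodes a tetraspanin that pairs with members of the Upk3 type, and *Upk3b* is a mark of mesothelium. In the gonad the surface (coelomic) epithelium belongs to the mesothelium, and Sertoli cells and granulosa cells, the supporting cells of testis and ovary, are epithelial cells that descend in part from it.

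After filtering, 39350 of 68064 cell barcodes were kept, between 4781 and 8569 per library, with 118475468 to 221675316 UMIs (unique molecular identifiers, 1 per captured mRNA molecule). Cells were grouped into 13 clusters without using the 7 genes, and a level is the sum of a gene's UMIs over the cells of a type in a library, per 1000000 UMIs of any gene in the same cells (CPM). Of the barcode sequences, 175 were kept in more than 1 library, 4 to 25 for a pair of libraries. As a check of the labels, *Amh* had 2036 and 1896 CPM in the supporting cells of control XY, 18 and 15.7 CPM in dKO XY and 1.35 and 1.45 CPM in control XX, and *Inhbb* had 161 and 185 CPM, 41.7 and 50.8 CPM and 37.6 and 25.3 CPM, in the same order. Whether the 3′ ends counted here lie within the deleted parts of these genes is not given in the sources used here.

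The epithelial cluster was named from markers of coelomic epithelium (*Lrrn4*, *Bnc1*, *Nkain4*, *Gpm6a*, *Msln*, *Muc16* and *Lhx9*), which hold no keratin and no uroplakin. A subcluster of 223 cells, 203 of them from the second dKO XY library, was led by germ cell genes (*Dazl*, *Ddx4*, *Dppa3*) and was set aside after its genes were seen, which left 30 and 43 epithelial cells in control XY, 167 and 95 cells in dKO XY and 178 and 102 cells in control XX. The summed level of the 7 coelomic markers in these cells was 635 and 661 CPM, 671 and 649 CPM and 559 and 499 CPM, and it was 499 or higher in each library against 448 or lower in each library's interstitial cells. In these sums the name "gonadal epithelium" held for 6 of the 7 genes, whose levels were higher in epithelial cells than in any other cell type of the same library, except for *Krt8* in the second control XY library (71.7 CPM against 73.2 CPM in supporting cells). It held less well in E2, the epithelial subcluster named from these markers (described below). In control XX, *Krt8* had 137 and 82.8 CPM in E2, against 169.9 and 181 CPM in supporting cells. *Krt18* had 191 and 86.2 CPM there, against 172 and 192 CPM. In both XY groups E2 was above the supporting cells for both genes. *Krt79* went against the name, with no UMI in the epithelial cells of control XY and 1.30 to 3.01 CPM in those of the other libraries.

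The 3 type II keratin genes and *Krt18* lie in the keratin cluster on chromosome 15, which holds 26 keratin genes from chr15:101347444-102032027 (GRCm38, GENCODE M21). *Krt7* lies at chr15:101411043-101430313 on the plus strand, *Krt79* at chr15:101929332-101940324 and *Krt8* at chr15:101996698-102004482 on the minus strand. *Krt18*, although it encodes a type I chain, is the next gene after *Krt8*, at chr15:102028180-102032027 on the plus strand. The starts of *Krt8* and *Krt18* are 23.7 kb apart and point away from each other, with 0 annotated genes between them. *Krt19* lies at chr11:100140810-100148665 (minus strand), *Upk1b* at chr16:38773184-38800328 (minus strand) and *Upk3b* at chr5:136038496-136046487 (plus strand). The 250 bases before the RefSeq start, which for *Krt7*, *Krt8* and *Krt18* lies inside the GENCODE span given above, were searched in the 5 members with a RefSeq promoter (GRCm38.p6: *Krt7*, *Krt8*, *Krt18*, *Krt79* and *Upk3b*) for 5 short motifs on both strands, and no 2 of the matches overlapped. AGGTCA, a site of nuclear receptors, was found once in each of *Krt8*, *Krt18* and *Upk3b*, and 14.0% of the 32851 RefSeq promoter windows of the same length hold it. GGGCGG, the GC box of Sp factors, was found 4 times in *Krt7* (32.7% of promoters hold it at least once). The core of the TATA box, TATAAA, had no match in the 5 windows (12.4% of promoters hold it). TGACTCA, the AP-1 site, likewise had none (4.46% of promoters). Nor was CCAAT found (33.8% of promoters). The 30 bases around AGGTCA, in capitals, are shown because they allow the neighbours *Krt8* and *Krt18* to be compared with *Upk3b*, for which no difference between groups passed the test in epithelial cells. Each stretch is written 5′ to 3′ on the strand of its gene, and it lies at chr15:102004550-102004579 for *Krt8* (bases 225 to 220 before the RefSeq start hold the match), at chr15:102028096-102028125 for *Krt18* (bases 108 to 103) and at chr5:136038329-136038358 for *Upk3b* (bases 155 to 150).
Krt8: ataagacagcttAGGTCAgagatcccaggc
Krt18: ctgcgacctgttAGGTCAcaggaatcccga
Upk3b: tggggctggactAGGTCAgggccagcctac

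Epithelial cells were 0.440% to 3.34% of the cells of a library and held 59.2% to 92.1% of the UMIs of *Upk1b*, 61.5% to 94.6% of those of *Upk3b* and 64.3% to 91.8% of those of *Krt19*. The larger population of supporting cells had 49.5% to 81.2% of the *Krt8* UMIs and 38.1% to 77.7% of the *Krt18* UMIs. For *Krt18* this was most of them in control XX only, and in the first dKO XY library epithelial cells held more (45.1% against 40.6%). Supporting cells also had 72.2% to 93.2% of the *Krt79* UMIs of dKO XY and control XX, and 38.0% and 52.9% of those of control XY. *Krt7* was divided between epithelial cells (40.1% to 69.9%), supporting cells (8.90% to 57.6%) and, in XY gonads, Leydig cells, the androgen-producing cells, which held 26.9% and 35.5% of it in control XY and 10.2% and 23.6% in dKO XY. The cells set aside held 19.2% of *Krt19*, 19.9% of *Upk1b*, 26.8% of *Upk3b* and 10.9% of *Krt18* in the second dKO XY library. They also held 182 of its 1574 *Krt7* UMIs, 505 of 4820 for *Krt8* and 31 of 2054 for *Krt79*. In the other libraries they held at most 1.35% of any member.

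**Figure D1:**
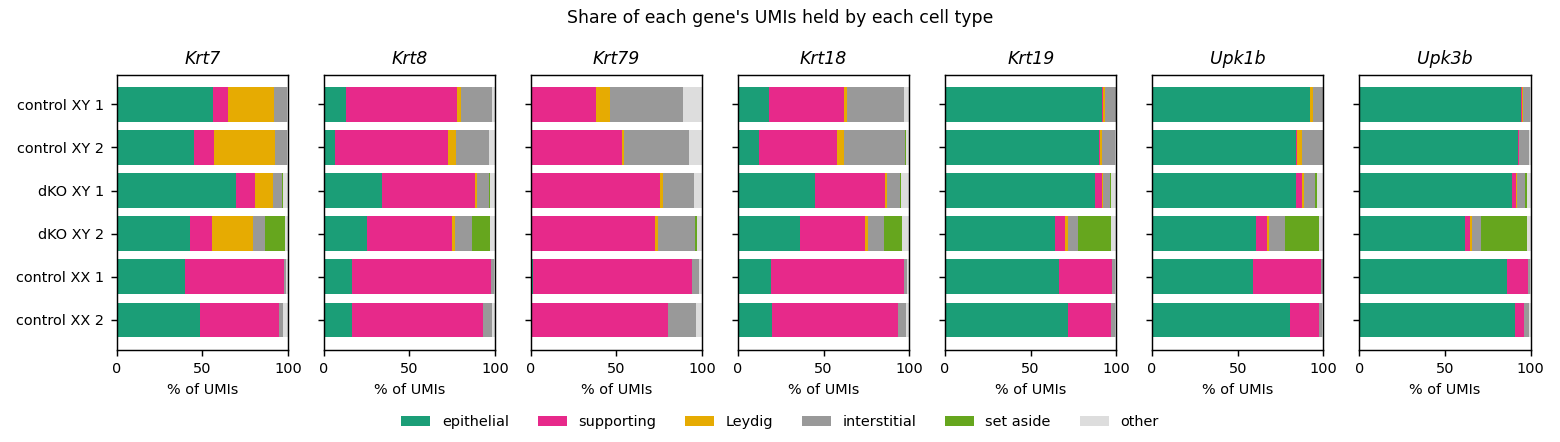
Share of the UMIs of each member held by each cell type (percent, bars from 0) in each of the 6 libraries. Epithelial cells hold most UMIs of *Krt19*, *Upk1b* and *Upk3b* in all 6 libraries (59.2% to 94.6%), and supporting cells hold most of *Krt8* in 5 of the 6 and 49.5% in the second dKO XY library.

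The levels differed between cell types by orders of magnitude for the uroplakins and *Krt19* and by less for *Krt8* and *Krt18*. *Upk3b* was at 421 to 552 CPM in epithelial cells, at 0.19 to 6.42 CPM in supporting cells and at 0.17 to 1.69 CPM in interstitial cells. *Krt8* was at 71.7 to 401 CPM in epithelial cells, at 66.6 to 181 CPM in supporting cells and at 1.29 to 8.11 CPM in interstitial cells. In control XY the epithelial and supporting levels of *Krt8* lay next to each other (102 and 71.7 CPM against 73.7 and 73.2 CPM) and overlapped, whereas in dKO XY and control XX every epithelial value exceeded every supporting value of the same group. Cell types were defined by clustering these cells, so differences between types are given as a description.

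**Figure D2:**
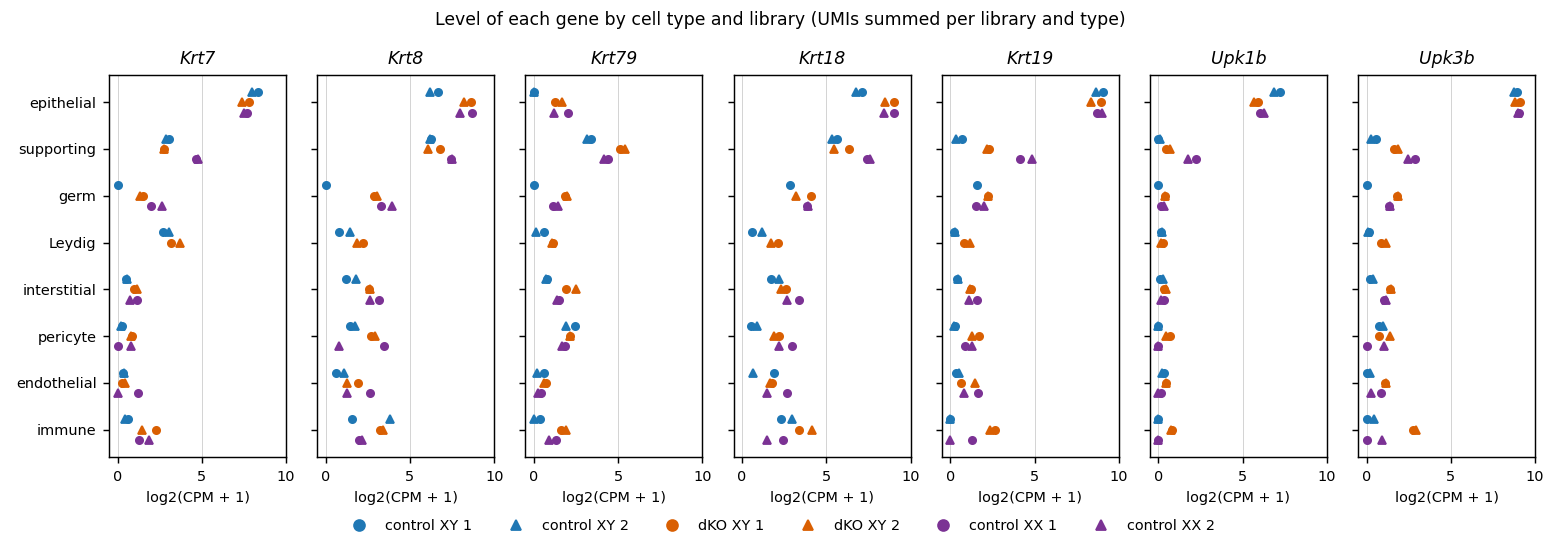
Level of each member (CPM, log axis with the pseudocount given on the axis) by cell type, 1 point per library with at least 10 cells of the type, coloured by group. Among the 8 types shown, epithelial cells hold the highest level of each member but *Krt79*, which is highest in supporting cells (8.03 to 41.4 CPM), and *Krt8* in the second control XY library. Erythroid cells are not shown, and 18 of them in the first control XX library held 24.2 CPM of *Krt79* from 16 UMIs, above the 19.6 CPM of its supporting cells.

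Within each cell type the groups were compared with edgeR's quasi-likelihood test on the summed UMIs, with Benjamini-Hochberg adjustment over all genes tested and a threshold of 0.05. In supporting cells 4 of 7 members rose in dKO XY against control XY (17.2% of all genes tested were called), all 7 were higher in control XX than in control XY (49.1% of genes called), and between dKO XY and control XX 6 were lower and 1 higher in dKO XY (41.1% called). In epithelial cells, where *Krt79* was too low to be tested, 2 of 6 rose and 1 fell in dKO XY against control XY (11.4% called), the same 3 genes changed the same way in control XX against control XY (6.45% called), and 0 of 6 were called between dKO XY and control XX (2.76% called). At an unadjusted p under 0.05 that last contrast had 0 of 6 members and 1934 of 12307 genes, and DESeq2 called 0 members. These comparisons share libraries: the control XY samples enter the first 2 of each set.

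**Figure D3:**
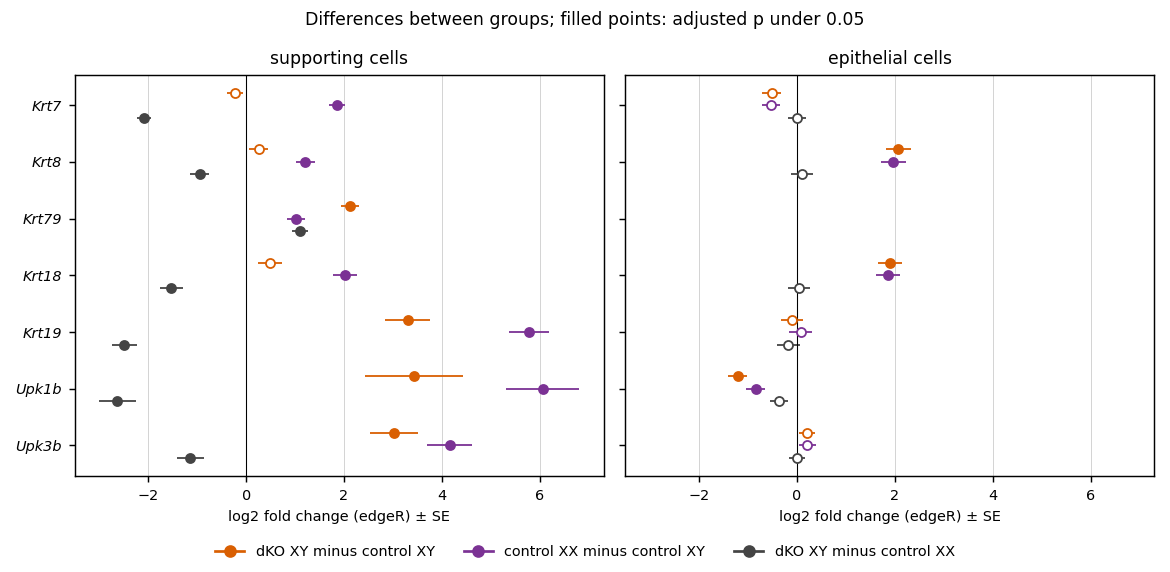
Log2 fold changes of each member tested, with standard errors (edgeR), in supporting and epithelial cells for the contrasts between groups, filled where the adjusted p was under 0.05. In epithelial cells *Krt8* and *Krt18* stand near 2 in both contrasts against control XY and near 0 between dKO XY and control XX.

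*Krt8* and *Krt18*, the partners of the simple epithelial filament, were lower in the epithelial cells of control XY than in those of the other groups. *Krt8* had 102 and 71.7 CPM in control XY, 393 and 295 CPM in dKO XY and 401 and 249.96 CPM in control XX. *Krt18* had 139 and 105 CPM, 515 and 349 CPM and 510.4 and 339 CPM, in the same order. Both control XY values lay below all 4 others for each gene, and dKO XY and control XX overlapped. On the log2 scale *Krt8* rose by 2.07 ± 0.26 (SE, adjusted p = 0.00111, edgeR) in dKO XY against control XY and was 1.97 ± 0.26 higher in control XX than in control XY (adjusted p = 0.00174, edgeR). *Krt18* rose by 1.90 ± 0.25 (adjusted p = 0.00135, edgeR) and was 1.86 ± 0.25 higher in control XX (adjusted p = 0.00212, edgeR). Between dKO XY and control XX the differences were 0.10 ± 0.23 for *Krt8* and 0.04 ± 0.23 for *Krt18* and did not pass the test (adjusted p = 0.881 and 0.958, edgeR). With the 223 cells set aside put back, the rises in dKO XY were 1.83 ± 0.32 for *Krt8* and 1.63 ± 0.34 for *Krt18* (adjusted p = 0.00573 and 0.0136, edgeR).

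The epithelial cells of the 3 groups were not spread alike over subclusters. The subclusters E0 (240 cells, led by *Mia* and the globin genes *Hbb-bt* and *Hbb-bs*, with 0 of the 7 coelomic markers raised against the other epithelial cells) and E3 (131 cells, led by cell cycle genes such as *Cdc20* and *Aurka*) held no control XY cells, E2 (155 cells, led by *Stmn2*, *Ogn* and *Sfrp2*) held cells of all 6 libraries, and E4 (89 cells) was led by *Sema3d*, *Nppc* and *Trh*. The granulosa marker *Gng13* was also among the leading genes of E0, at 632 CPM. *Krt8* was at 295 to 651 CPM in E0 and at 344 to 538 CPM in E3, but at 79.5 to 186 CPM in E2. Within E2 it had 128 and 79.5 CPM in control XY, 186 and 127 CPM in dKO XY and 137 and 82.8 CPM in control XX, so that all 3 groups overlapped. Tested in E2 alone, with 14 to 39 cells per library, 0 of 6 members passed in any contrast: the rise of *Krt8* in dKO XY against control XY came to 0.68 ± 0.28 on the log2 scale (adjusted p = 0.4, edgeR) and that of *Krt18* to 0.57. At an unadjusted p under 0.05 there were 1, 2 and 1 members in dKO XY against control XY, control XX against control XY and dKO XY against control XX. The choice of E2 was made after seeing the data. The shares of all genes at these thresholds in E2 are not given here, so the counts are not read as a result about the members. Other markers moved with the groups in the same cells. The 8 interstitial markers summed to 4284 and 4538 CPM in the epithelial cells of control XY, 1288 and 1249.6 CPM in dKO XY and 1509 and 2645 CPM in control XX, and the 9 granulosa markers to 335 and 309 CPM, 977 and 923 CPM and 1285 and 765 CPM. All 8 interstitial markers were detected in each library, and 6 and 7 of the granulosa markers in control XY. Their part in the difference of *Krt8* and *Krt18* was not tested.

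**Figure D4:**
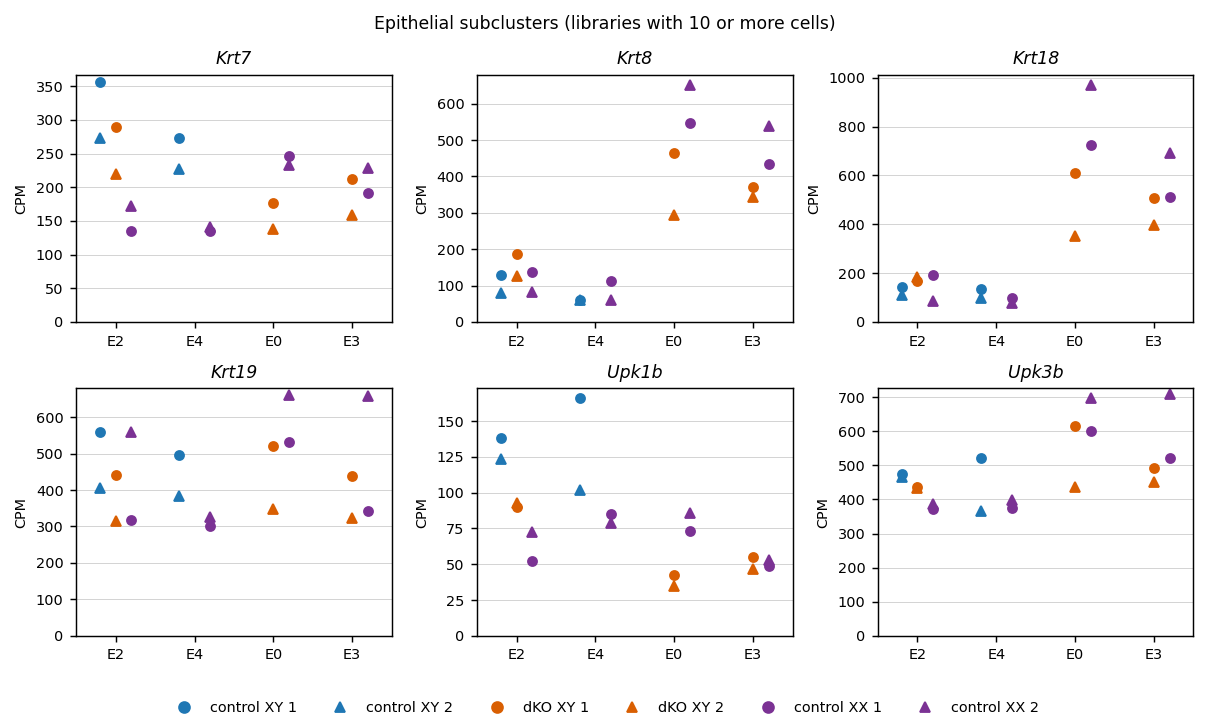
Level of *Krt7*, *Krt8*, *Krt18*, *Krt19*, *Upk1b* and *Upk3b* (CPM, axis from 0) in the subclusters E2, E4, E0 and E3 of the epithelial cells, 1 point per library with at least 10 cells, coloured by group. *Krt8* and *Krt18* are high in E0 and E3, which hold no control XY cells, and low in E2 and E4, where control XY cells lie.

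In supporting cells *Krt8* and *Krt18* were highest in the ovary. *Krt8* had 73.7 and 73.2 CPM in control XY, 108 and 66.6 CPM in dKO XY and 169.9 and 181 CPM in control XX. *Krt18* had 47.7 and 39.6 CPM, 78.8 and 42.6 CPM and 172 and 192 CPM, in the same order. Both control XX values exceeded all 4 XY values for each gene, and the 2 XY groups overlapped. The dKO XY libraries differed from each other, and the XY groups were also spread differently over subclusters (described below). In the sum of S2 and S4 *Krt8* had 145 and 94.2 CPM in dKO XY, above the 89.2 and 87.1 CPM of control XY, while *Krt18* overlapped. In S3, which held 444 and 454 dKO XY cells and 11 and 24 control XY cells, *Krt8* had 54.0 and 38.7 CPM in dKO XY. The part of this mix was not tested. *Krt8* was 1.21 ± 0.19 higher on the log2 scale in control XX than in control XY (adjusted p = 0.000508, edgeR) and *Krt18* 2.01 ± 0.24 higher (adjusted p = 8.13e-05, edgeR). Against control XY the differences in dKO XY were 0.25 ± 0.19 for *Krt8* and 0.49 ± 0.24 for *Krt18* and did not pass (adjusted p = 0.43 and 0.208, edgeR). Without the first dKO XY library the difference of *Krt8* was -0.11, and without the second that of *Krt18* passed the test, at 0.84. Against control XX, dKO XY supporting cells fell by 0.95 ± 0.19 for *Krt8* and by 1.53 ± 0.23 for *Krt18* (adjusted p = 0.00256 and 0.000568, edgeR).

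The 2 partners kept different proportions in different cells. For each *Krt8* UMI there were 1.01 and 1.06 *Krt18* UMIs in control XX supporting cells, 0.647 and 0.541 in control XY and 0.731 and 0.64 in dKO XY. In the sum of S2 and S4 the ratio was 0.656 and 0.529 in control XY and 0.647 and 0.524 in dKO XY. S3 of dKO XY had 621 and 534 *Krt18* UMIs against 596 and 591 of *Krt8*. In the sums of epithelial cells the ratio was 1.18 to 1.46 in all 6 libraries, above every value of the supporting cells given as a ratio here, with no separation of the groups. E2 of the first dKO XY library had 109 *Krt18* UMIs against 122 of *Krt8*. The counts are of 3′ ends captured per molecule and the efficiency of capture may differ between the genes, so the ratio compares cells and does not give the stoichiometry of the chains. Of the supporting cells with a *Krt8* UMI, after each cell was thinned to 5000 UMIs, 55.6% and 59.1% also held *Krt18* in control XX, where both genes were highest, against 29.7% and 14.9% in control XY and, for dKO XY, 35.6% and 24.1%. In epithelial cells the same share was 53.8% and 36.4% in control XY, where both genes were lowest, against 92.2% and 82.8% of them in dKO XY and 82.5% and 68.0% of them in control XX.

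*Krt7* and *Krt19*, partners in ductal and mesothelial filaments, went another way in the epithelial cells. *Krt7* had 324 and 253 CPM in control XY epithelial cells, 219 and 163 CPM in dKO XY and 202 and 182 CPM in control XX, so that both control XY values lay above the others. The differences, -0.52 ± 0.19 and -0.53 ± 0.19 on the log2 scale against control XY, did not pass the test (adjusted p = 0.106 and 0.136, edgeR). *Krt19* had 535 and 396 CPM in control XY, 495 and 329 CPM in dKO XY and 423 and 515 CPM in control XX, with all groups overlapping (differences of -0.10 ± 0.23 and 0.08 ± 0.23, adjusted p = 0.831 and 0.9, edgeR). The ratio of *Krt7* to *Krt8* UMIs was thus 3.18 and 3.53 in the epithelial cells of control XY and 0.503 to 0.727 in those of the other 4 libraries. The groups lie in different subclusters, and the gap was smaller in E2. Control XY had 253 and 244 *Krt7* UMIs there against 91 and 71 of *Krt8*. For dKO XY these were 190 and 111 against 122 and 64, and for control XX 161 and 258 against 163 and 124.

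In supporting cells *Krt7* and *Krt19* were ovarian. *Krt7* had 7.32 and 6.44 CPM in control XY, 5.82 and 5.72 CPM in dKO XY and 24.6 and 26.4 CPM in control XX, where it was 1.85 ± 0.16 higher on the log2 scale than in control XY (adjusted p = 6.86e-06, edgeR). Its difference between dKO XY and control XY was -0.23 ± 0.16 (adjusted p = 0.408, edgeR). *Krt19* had 0.61 and 0.255 CPM in control XY, from 9 UMIs in all, 4.02 and 3.46 CPM in dKO XY and 16.8 and 27.4 CPM in control XX. The 3 groups did not overlap, and *Krt19* was 5.79 ± 0.41 higher in control XX than in control XY (adjusted p = 1.89e-06, edgeR) and rose by 3.30 ± 0.47 in dKO XY (adjusted p = 0.00108, edgeR). It passed the filter on low counts through dKO XY and control XX, so these calls are a description. As a ratio of summed UMIs the rise in dKO XY was 9.95 (95% exact interval 5.17 to 22.0, which covers counting error only).

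The dKO XY level of *Krt19* in supporting cells has to be read beside its level in cells that should lack it. Immune cells of dKO XY had 5.35 and 4.16 CPM of *Krt19*, at or above the 4.02 and 3.46 CPM of the supporting cells, and those of control XY had 0 and 0 CPM. The same held for *Upk3b*, with 5.73 and 6.59 CPM in immune cells of dKO XY against 2.14 and 2.68 CPM in supporting cells, and for *Upk1b*, with 0.765 and 0.694 CPM against 0.37 and 0.586 CPM. With all cells kept, the levels of these 3 genes in dKO XY supporting cells were thus no higher than in a cell type that is not known to express them, and the part of free RNA or of doublets was not tested. Interstitial cells of dKO XY, at 1.34 and 1.27 CPM of *Krt19*, were lower than the supporting cells. In control XX, *Krt19* in supporting cells (16.8 and 27.4 CPM) exceeded that in interstitial cells (2.06 and 1.16 CPM) and in immune cells (1.45 and 0 CPM). Without the 8% of cells with the highest doublet scores in each library, the order turned: *Krt19* in dKO XY had 1.83 ± 1.69 CPM in immune cells (SD, n = 2) and 3.79 ± 0.18 CPM in supporting cells, and *Upk3b* 1.88 ± 0.95 and 2.34 ± 0.19 CPM.

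*Krt79* was the member that rose in the supporting cells of dKO XY above every other group and cell type. It had 9.52 and 8.03 CPM in control XY, 33.4 and 41.4 CPM in dKO XY and 19.6 and 16.6 CPM in control XX, and the 3 groups did not overlap. On the log2 scale it rose by 2.12 ± 0.18 in dKO XY against control XY (adjusted p = 6.24e-05, edgeR) and was 1.10 ± 0.16 higher than in control XX (adjusted p = 0.000416, edgeR), the only member with more in dKO XY than in control XX supporting cells. Control XX was 1.02 ± 0.18 higher than control XY (adjusted p = 0.00113, edgeR). Immune cells of dKO XY held 2.10 and 2.77 CPM of *Krt79*, far under the supporting cells. All of these calls kept their direction when any library was left out.

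The supporting cells were clustered again into 5 subclusters. S0 (2268 cells) scored for granulosa markers and held 1696 and 545 control XX cells, S2 (1109 cells) and S4 (587 cells, led by cell cycle genes) scored for Sertoli markers and held XY cells, and S1 (1453 cells) and S3 (956 cells) had no name by the markers used. The leading genes of S2 were germ cell genes (*Dppa5a*, *Dppa3*, *Utf1*, *Pou5f1*) beside the Sertoli genes *Cst9* and *Etd*, so the subclusters are compared by number. S3, led by *Tnnt2*, *Sct* and *Smoc2*, held 444 and 454 dKO XY cells, 11 and 24 control XY cells and 16 and 7 control XX cells. Against the other supporting cells all 6 Leydig markers and 7 of 8 interstitial markers were higher in S3, with the Leydig genes *Cyp11a1* and *Insl3* among its 10 leading genes. The Leydig markers summed to 701 and 716 CPM in S3 of dKO XY, against 167 and 201 CPM in S2 of the same libraries and 26139 and 26247 CPM in their Leydig cells, and the part of such markers in the level of *Krt79* was not tested. *Krt79* was at 26.8 and 35.4 CPM in S2 of dKO XY against 5.24 and 3.88 CPM in S2 of control XY, and at 36.1 and 46.6 CPM against 6.24 and 6.13 CPM in S4. In S3 it was at 47.4 and 47.0 CPM in dKO XY, and at 36.6 and 79.4 CPM in the 11 and 24 control XY cells there, where the groups overlapped. Within S2 and S4, which had control XY cells in number, the groups thus stood apart, and in S3 they did not.

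**Figure D5:**
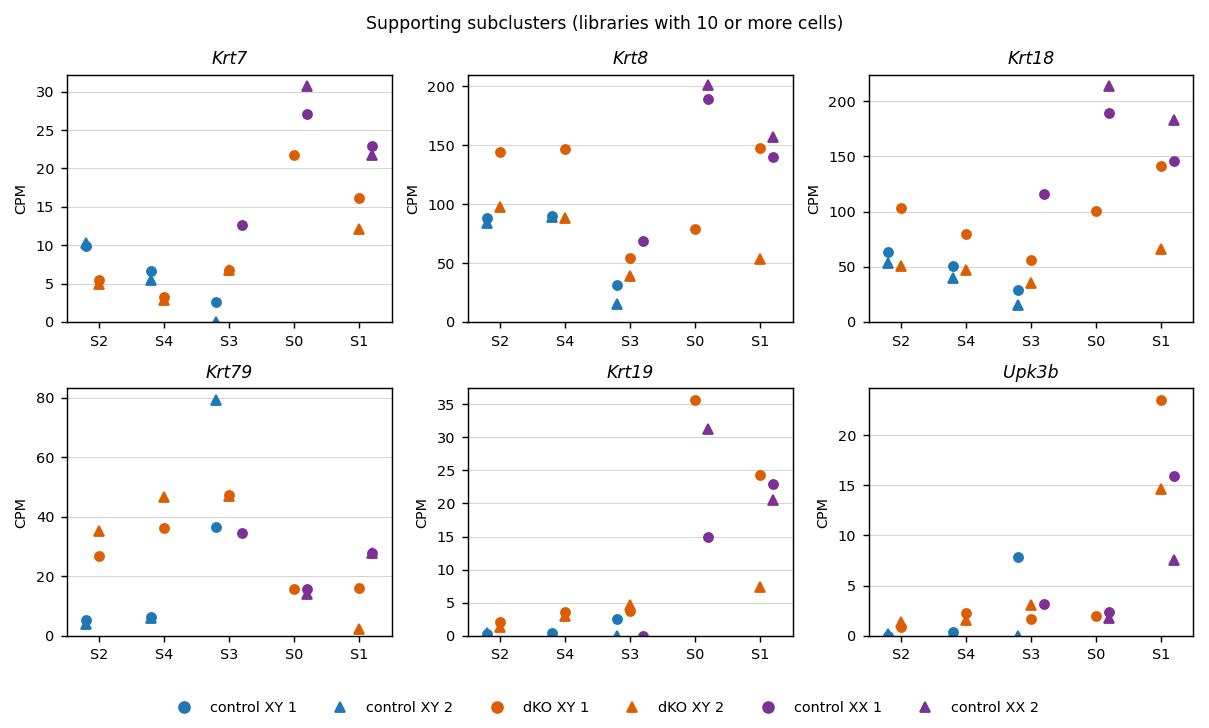
Level of the members other than *Upk1b* (CPM) in the subclusters S0 to S4 of the supporting cells, 1 point per library with at least 10 cells, coloured by group. *Krt79* is 26.8 CPM or higher in S2 and S4 of dKO XY and 6.24 CPM or lower in those of control XY.

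In the sum of S2 and S4, dKO XY against control XY, 4 of 6 members tested were called (14.5% of all genes). *Krt79* had 5.64 and 5.12 CPM in control XY and 30.5 and 39.6 CPM in dKO XY, a rise of 2.67 ± 0.21 on the log2 scale (adjusted p = 2.33e-05, edgeR). *Krt7* had 8.63 and 7.69 CPM in control XY and 4.62 and 4.2 CPM in dKO XY and fell by 0.92 ± 0.24 (adjusted p = 0.0245, edgeR), with no overlap. The fall of *Krt7* was lost without either control XY library, with DESeq2 and in S4 alone, where it was -1.0 (adjusted p = 0.0945, edgeR). *Krt19* and *Upk3b* rose by 3.01 ± 0.52 and 3.0 ± 0.61 from 5 and 3 UMIs in control XY (adjusted p = 0.0032 and 0.00724, edgeR), to levels at or below those of the immune cells. Both genes passed the filter on low counts through dKO XY alone, so their calls are a description. The call of *Upk3b* was lost with DESeq2 and without the second control XY library (3.06 and 2.98). *Krt8* had 89.2 and 87.1 CPM in control XY and 145 and 94.2 CPM in dKO XY, and *Krt18* 58.6 and 46.1 CPM and 93.9 and 49.3 CPM, and neither passed (0.39 ± 0.18 and 0.41 ± 0.25 on the log2 scale, adjusted p = 0.198 and 0.341, edgeR). Both passed without the second dKO XY library (0.65 and 0.78), and without the first *Krt18* was at -0.10.

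The uroplakins were held mainly by epithelial cells. *Upk3b* had 493 and 421 CPM in the epithelial cells of control XY, 552 and 451 CPM in dKO XY and 517 and 497 CPM in control XX, with all groups overlapping and differences of at most 0.21 ± 0.17 on the log2 scale that did not pass (adjusted p of 0.491 or higher, edgeR). *Upk1b*, its tetraspanin relative, had 149 and 114 CPM, 57.9 and 49.6 CPM and 65.3 and 74.6 CPM, with both control XY values above all others. It fell by 1.21 ± 0.19 in dKO XY against control XY (adjusted p = 0.0035, edgeR) and was -0.84 ± 0.19 in control XX against control XY (adjusted p = 0.0272, edgeR). The second of these calls was kept in 9 of 16 alternatives. It was lost, among others, with the cells set aside put back (-0.82, adjusted p = 0.115, edgeR). It was also lost without the first control XY, the second dKO XY or the first control XX library, where the difference was between -0.83 and -0.62. In E2 alone *Upk1b* had 138 and 123 CPM in control XY, 90.0 and 93.0 CPM in dKO XY and 52.1 and 72.8 CPM in control XX, and neither difference passed (-0.43 against control XY in dKO XY and -0.93 in control XX, adjusted p = 0.647 and 0.0513, edgeR).

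In supporting cells the uroplakins were low in every group. *Upk3b* had 0.488 and 0.191 CPM in control XY, 2.14 and 2.68 CPM in dKO XY and 6.42 and 4.52 CPM in control XX. *Upk1b* had 0 and 0.0637 CPM in control XY, from 1 UMI, 0.37 and 0.586 CPM in dKO XY and 3.69 and 2.40 CPM in control XX. The groups did not overlap for either gene, and both were called in all 3 contrasts. Both passed the filter on low counts through dKO XY and control XX, so their calls against control XY are a description. For *Upk3b* the rise in dKO XY against control XY was lost without the second control XY library (2.30 on the log2 scale in place of 3.02), and the fall against control XX without the first control XX library, with cells of more than 1500 genes and with all variable genes in the clustering (-0.84, -0.75 and -0.47 in place of -1.14). As ratios of summed UMIs, *Upk1b* was 80.2 times as high in control XX as in control XY (95% exact interval 14.3 to 3177, counting error only) and *Upk3b* 20.2 times (9.77 to 50.5). *Upk3b* in control XX was higher in the unnamed subcluster S1, with 15.9 and 7.56 CPM against 2.34 and 1.78 CPM in S0, and the dKO XY cells in S1, 49 and 12 in number, had 23.5 and 14.6 CPM. The call of *Upk1b* between dKO XY and control XY (3.42 ± 1.00 on the log2 scale, adjusted p = 0.0418, edgeR) was lost under 8 of the alternatives, among them the removal of the second dKO XY or of either control XY library (3.03, 2.85 and 7.28).

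The differences between groups were set against each other between cell types in a fit with the library as a block, added after seeing the data. Between supporting and epithelial cells 5 of the members differed in their dKO XY against control XY effect (13.9% of all genes), 5 in the control XX against control XY effect (24.8%) and 6 in the dKO XY against control XX effect (19.4%). *Krt79*, which also passed there, is not counted, since it failed the filter on low counts in epithelial cells and entered this fit through the supporting cells. The epithelial cells of the groups lie in different subclusters, and the difference was not tested with E2 alone, where the rises of *Krt8* and *Krt18* in dKO XY came to 0.68 and 0.57. The effect on *Krt8* in dKO XY was smaller in supporting than in epithelial cells, by a difference of -1.86 ± 0.23 on the log2 scale (adjusted p = 0.000263, edgeR), and *Krt18* likewise, by -1.46 ± 0.20 (adjusted p = 0.000593, edgeR). *Upk1b*, which fell in epithelial cells, differed by 4.48 ± 1.05 (adjusted p = 0.014, edgeR). In E2 alone its difference in dKO XY against control XY was -0.43 and did not pass, and control XY supporting cells held 1 UMI of it. For *Krt7* the effect of control XX against control XY differed by 2.35 ± 0.17 (adjusted p = 1.13e-06, edgeR).

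The members were low in interstitial cells, and in Leydig cells all but *Krt7* were low. In interstitial cells 5 of 7 rose in dKO XY against control XY (7.07% of genes called), 6 of 7 were higher in control XX than in control XY (25.3%), and *Krt79* alone of 7 differed between dKO XY and control XX (27.9%). *Krt79* had 0.681 and 0.676 CPM in control XY, 2.67 and 4.72 CPM in dKO XY and 1.84 and 1.55 CPM in control XX, and rose by 2.43 ± 0.28 in dKO XY (adjusted p = 0.0047, edgeR). Its excess over control XX was lost without the second dKO XY or either control XX library (0.62, 1.12 and 0.98). Of the other calls against control XY in dKO XY, that of *Krt7* was lost without any of the 4 XY libraries (1.15 to 1.47), that of *Krt8* without either dKO XY library or the first control XY library (1.00 to 1.42) and that of *Krt19* without the first control XY library (1.71), while *Upk3b* kept its call. The calls of *Krt7* and *Krt8* were also lost with the replicate block, with total UMIs as library size and without likely doublets. Against control XY in control XX, *Krt7* was lost without either control XY or the first control XX library, and *Krt18* without the first control XY or first control XX library. The levels in interstitial cells lay below those of the whole library: the level of *Krt79* was 60.7% and 59.9% of the level over all cells in control XY and 35.1% and 44.1% of it in dKO XY. That of *Krt8* was 25.4% and 30.7% of it in control XY, 14.4% and 20.6% of it in dKO XY and 6.77% and 8.73% of it in control XX. Whether the counts come from RNA of other cells was not tested. In Leydig cells 2 of 6 members were called, *Krt19* and *Upk3b* (5.06% of genes), from at most 0.211 CPM in control XY to at most 1.26 CPM in dKO XY. Both genes passed the filter on low counts through dKO XY alone, so these calls are a description and not support for a rise. The call of *Krt19* was lost without the second dKO XY library (1.97 on the log2 scale). With the replicate block all 6 members tested in Leydig cells were called. *Krt7* was the member with most UMIs there, at 5.50 and 7.40 CPM in control XY and 8.10 and 12 CPM in dKO XY (0.62 ± 0.21, adjusted p = 0.151, edgeR, and 0.61 ± 0.14, adjusted p = 0.00352, with the replicate block), against 0.399 and 0.483 CPM and 0.972 and 1.24 CPM in interstitial cells of the same libraries. Leydig cells thus held *Krt7* with little *Krt8*, which had 0.729 and 1.71 CPM in control XY, and there were 2.22 to 7.54 *Krt7* UMIs for each of *Krt8*, against 0.054 to 0.145 in supporting cells. The *Krt7* effect of dKO XY differed between S2 and S4 and Leydig cells by -1.48 ± 0.27 (adjusted p = 0.00058, edgeR), as did 2 other members (16.7% of genes differed).

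In the remaining cell types few members passed the filter on low counts. In endothelial cells 0 of 3 were called in dKO XY against control XY, in control XX against control XY and in dKO XY against control XX (0.575%, 4.85% and 2.95% of genes called). In pericytes, the mural cells of vessels, 0 of 3 were called in the first, 1 of 3 in the second and 0 of 3 in the third (0.242%, 7.67% and 6.38%), the one being *Krt18*, with 0.439 and 0.811 CPM in control XY and 6.71 and 3.63 CPM in control XX. *Krt79* stood out from the other members in pericytes by its control XY level of 4.39 and 2.76 CPM, above the 0.681 and 0.676 CPM of interstitial cells, with 3.32 and 3.41 CPM in dKO XY and 2.52 and 2.18 CPM in control XX. In immune cells 0 of 4 were called in any of the 3 contrasts (0.00888%, 2.62% and 1.77%). By DESeq2 0 members were called in these 8 contrasts without a call. At an unadjusted p under 0.05 there were 3 of 3 in endothelial cells between control XX and control XY (2000 of 11998 genes). In pericytes there were 2 of 3 between dKO XY and control XY (711 of 11969 genes). In immune cells there were 3 of 4 in dKO XY against control XY (900 of 11255 genes) and 3 of 4 against control XX (1814 of 11255 genes). The raised members there included *Krt19* and *Upk3b*, which passed the filter on low counts through dKO XY alone. The other contrasts had 0. The call of *Krt18* in pericytes was lost without the first control XY or the first control XX library (2.56 and 2.53 on the log2 scale). In germ cells, which control XY gonads held in too small a number to be tested, *Krt7* and *Krt8* were lower in dKO XY than in control XX, 2 of 6 members (51.3% of genes called), with *Krt8* at 6.42 and 7.32 CPM against 8.85 and 14.0 CPM. Without likely doublets the difference of *Krt8* in germ cells turned from -0.67 to 0.70. Both germ cell calls were lost without either dKO XY library and without the second control XX library.

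Over all cells of a library the members were lowest in control XY. *Krt8* had 5.08 and 8.23 CPM in control XY, 33.8 and 25.2 CPM in dKO XY and 119.8 and 59.0 CPM in control XX, with no overlap. In dKO XY 5 of 7 members rose against control XY (6.52% of genes called), all 7 were higher in control XX than in control XY (32.1%), and 5 of 7 were lower in dKO XY than in control XX (23.1%). With 1 library left out the first count was between 1 and 7 and the third between 0 and 6, and the second stayed at 7. More cells of a type and more RNA per cell cannot be told apart in these sums, and supporting cells were 3.81% and 6.29% of the cells in control XY, 16.0% and 16.9% of those in dKO XY and 56.5% and 24.6% of those in control XX.

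The share of cells in which a member was found is given as a description. For genes as low as these in supporting cells it largely follows the mean level, so it cannot tell a rise in many cells from a rise in few. Because deeper cells hold more genes, each cell was thinned at random to 5000 UMIs before its members were counted, and no cell was shallower than that. Shares are of single libraries, with exact (Clopper-Pearson) 95% intervals that cover counting error only. *Krt79* was found in 3.85% and 4.08% of supporting cells of control XY, in 13.5% and 13.6% (11.5 to 15.9 in the second library) of those of dKO XY and in 8.96% and 5.52% of those of control XX. Without thinning the shares were 15.0% and 13.0%, 41.4% and 51.4%, and 28.7% and 22.8%. The order of the groups was the same on both scales and the same as that of the CPM, which the shares largely restate. In immune cells, which should lack keratins, *Krt79* was found in 0% and 0% of cells in control XY, and in 1.09% and 2.94% in dKO XY (without thinning 0.694% and 0%, and 4.37% and 3.92%). For the thinned cells of control XY the intervals reach to 2.53% and 3.21% (0 of 144 and 0 of 113 cells). The median depth was similar, at 18955 to 30937 UMIs per supporting cell and 20326 to 24004 per immune cell.

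*Krt8* was found in 28.5% and 24.9% of control XY supporting cells, 33.3% and 24.6% of dKO XY and 46.9% and 53.3% of control XX, against 2.08% to 4.92% of immune cells over the 6 libraries. Without thinning the shares of supporting cells were 63.8% and 63.1%, 67.0% and 64.7%, and 82.1% and 82.4%. *Krt7* was found in 2.31% and 3.90%, 2.54% and 2.80%, and 9.93% and 10.6% of supporting cells in the same order. Without thinning these were 14.2% and 13.7%, 11.4% and 14.3%, and 33.4% and 31.5%. For both genes the control XX shares lay above all 4 XY shares. *Krt19* was found in 0.385% and 0.186% of control XY supporting cells, 1.31% and 2.18% of dKO XY and 4.98% and 10.2% of control XX, and without thinning in 1.92% and 0.742%, 5.23% and 6.94%, and 14.9% and 22.3%. The dKO XY shares of *Krt19* were close to those in immune cells, at 1.09% and 2.94% (without thinning 1.64% and 5.88%). *Upk3b* was in 0.692% and 1.24% of dKO XY supporting cells (4.38% and 6.22% without thinning), against 1.64% and 0% of the immune cells.

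In epithelial cells *Upk3b* was found in 73.3% and 81.4% of cells in control XY, 85.0% and 82.1% of those in dKO XY and 84.3% and 84.3% of those in control XX, and without thinning in 90.7% to 100% over all libraries. *Krt19* was found in 67.4% to 80.2% over the 6 libraries (83.7% to 99.0% without thinning). Most epithelial cells thus held these 2 genes in every group. *Krt8* was found in 43.3% (25.5 to 62.6) and 25.6% (13.5 to 41.2) of control XY epithelial cells, 68.9% and 67.4% of dKO XY and 70.8% and 49.0% of control XX. Without thinning they were 76.7% and 76.7%, 93.4% and 95.8%, and 92.1% and 85.3%. *Krt79* was found in 0% of thinned epithelial cells in control XY and dKO XY (0 of 30, 43, 167 and 95 cells, with intervals that reach to 11.6%, 8.22%, 2.18% and 3.81%) and in 1.69% and 1.96% in control XX. Without thinning it was in 0% and 0% of control XY cells, 4.19% and 9.47% of dKO XY cells and 10.1% and 5.88% of control XX cells.

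Other genes of epithelial structure were read from the same fits. In supporting cells, dKO XY against control XY, 6 of 13 tested genes of desmosomes and filament linkers rose and 2 fell, and 5 of 18 adhesion and tight junction genes rose and 2 fell. Of 4 other keratins 2 rose, of 9 other intermediate filament genes 1 rose and 5 fell, and of 7 epithelial regulators 3 rose and 1 fell, while 17.2% of all genes were called in either direction. The median log2 fold changes of these lists were 0.83, 0.21, 1.09, -0.55 and 1.46, against 0.02 over all genes tested. In S2 and S4 alone the linkers counted 3 higher and 2 lower of 11 (median 0.27) and the other filament genes 1 higher and 1 lower of 8 (median -0.11), with 14.5% of all genes called. The adhesion and junction genes counted 6 higher and 1 lower of 16 (median 0.48), the regulators 3 higher and 1 lower of 4 (1.94) and the other keratins 1 higher of 3 (1.35). *Dsc2*, a desmosomal cadherin, had 4.03 and 3.57 CPM in control XY, 12.9 and 14.7 CPM in dKO XY and 14.7 and 14.7 CPM in control XX, and rose by 1.89 ± 0.18 (adjusted p = 0.000115, edgeR). *Dsp*, the desmoplakin that ties keratin filaments to desmosomes, instead had 127 and 156 CPM in control XY, 96.9 and 88.8 CPM in dKO XY and 11.7 and 7.53 CPM in control XX. The difference of *Dsp* between control XX and control XY was -3.91 ± 0.21 on the log2 scale (adjusted p = 3.47e-07, edgeR), while *Krt8* and *Krt18* were higher there. *Dst*, a linker of filaments, fell by 1.44 ± 0.15 in dKO XY (adjusted p = 0.000155, edgeR).

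Among junction genes *Cgn* (cingulin) rose by 0.76 ± 0.13 in dKO XY, *Cldn11*, the claudin of the Sertoli cell barrier, rose by 1.36 ± 0.15, and *Cdh3* (P-cadherin) fell by 0.78 ± 0.16 (adjusted p = 0.00369, 0.000221 and 0.00888, edgeR). *Nes* (nestin) and *Synm* (synemin), filament proteins that do not pair with keratins, were at 52.3 and 58.5 CPM and at 60.8 and 72.3 CPM in the control XY libraries, and at most 3.17 CPM in control XX. They differed by -4.73 ± 0.30 and -4.76 ± 0.24 between control XX and control XY (adjusted p = 8.97e-07 and 2.25e-07, edgeR), opposite to *Krt8* and *Krt18*. *Lmnb1* (lamin B1) fell by 0.55 ± 0.14 in dKO XY (adjusted p = 0.02, edgeR), but in S2 and S4 alone its difference was -0.37 ± 0.15 and did not pass (adjusted p = 0.131, edgeR). Of the 7 tetraspanins related to *Upk1b*, *Cd82* alone was called between dKO XY and control XY in supporting cells and rose by 1.08 ± 0.15 (adjusted p = 0.000917, edgeR), and *Cd9* differed by -0.39 ± 0.13 between control XX and control XY (adjusted p = 0.0267, edgeR). In epithelial cells, dKO XY against control XY, 2 of 12 linkers rose, among them *Dsp* (1.33 ± 0.34, adjusted p = 0.0331, edgeR), and 3 of 8 other filament genes fell, among them *Nes* and *Synm*, where 11.4% of all genes were called. Of the tetraspanins 1 rose and 2 fell there, *Cd82* by 1.49 ± 0.22 and *Cd9* by 1.43 ± 0.27 (adjusted p = 0.0026 and 0.00722, edgeR), so that *Cd82* was called in opposite directions in the sums of epithelial and of supporting cells. The epithelial cells of the groups lie in different subclusters, and values within E2 are not given here for these genes. The value of *Cd82* in the test of effects between the cell types is not given here.

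Across the 48 sums of a library and a cell type, the genes most like *Krt8* in log2 CPM were *Krt18* (Pearson r = 0.948), *Epn3* (0.922) and *Tnni1* (0.911), among 11184 genes. *Krt18* was most like *Krt8*, a gene model named only by its clone (0.913) and *Epn3* (0.903), and *Krt7* was most like *Upk1b* (0.906), *Krt19* (0.893) and *Tm4sf5* (0.893). *Krt19* and *Upk3b* were among each other's nearest genes (0.969), with *Tm4sf5* (0.96) and *Crb2* (0.96) for *Krt19* and *Muc16* (0.975) and *Crb2* (0.962) for *Upk3b*. *Upk1b* was most like *Krt14* (0.971), *Upk3b* (0.958) and *Muc16* (0.957). *Krt79* differed from all other members (r between -0.10 and 0.48 with them) and was most like *Gstm2* (0.788), *Aard* (0.785) and *Wfdc10* (0.783). The sums of a library share its depth and its free RNA, and the coefficients describe these sums without a test.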

How the data were processed

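Gonads of mouse embryos (2 libraries per group) were captured with the 10x platform. The authors deposited unnormalized counts of UMIs for every gene and cell barcode, made with Cell Ranger v3.0 and corrected for barcode swapping (build mm10). Their processing notes also name Seurat 4.0. The 7 genes, the gene lists and the tests were chosen with earlier results of these data known.

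Counts were read in R 4.3.3. Cells that held over 2500 and under 9000 genes, under 25% mitochondrial and under 20% *Hbb* UMIs were kept and clustered with Seurat 5.3.0 (normalization to 10000, 3000 variable genes, 20 dimensions, resolution 0.21), with the members, other keratins and uroplakins and the listed genes of epithelial structure (39 genes) left out of the variable genes. A cluster was named from markers if at least 3 of a class were in 10% of its cells at 1.5 times the level elsewhere. Supporting cells with a level under 1 of *Sycp3* and *Tcf21* (6373 cells) were split again (8 dimensions, resolution 0.25), and epithelial cells likewise (10 dimensions, resolution 0.3). A subcluster of 223 epithelial cells led by germ cell genes was set aside after its genes were seen. Doublets were not removed: the alternative leaves out the 8% of cells of each library with the highest Scrublet scores. Lists of genes of epithelial structure were the other keratins, other uroplakins, other intermediate filaments, desmosome and filament linkers, adhesion and tight junction genes, epithelial regulators and tetraspanins.

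UMIs were summed over at least 10 cells per library and type and tested with edgeR 4.0.16 (filterByExpr, TMM, quasi-likelihood, all groups in a single fit, adjusted p under 0.05). Standard errors are the log2 fold change over the square root of F. The tests were checked on simulated counts. For shares of cells with a UMI, cells were thinned to 5000 UMIs, which no kept cell fell short of. Exact intervals (95%) cover counting error only. Named genes were the members, at most 3 called genes of each list with the largest change in supporting cells and a mean log2 CPM of at least 3, and the 3 genes most like each member (log2 of CPM plus 1, genes of at least 5 CPM on average). Alternatives were DESeq2 1.42.0, total UMIs as library size, the replicate block, no filter on low counts, fits of the compared groups alone, leaving out each library, no likely doublets, all variable genes and cells with more than 1500 genes. Chosen after seeing the data were the fits with the cells set aside, in E2 and in S4 alone and in the Sertoli cluster before clustering again, and the tests of effects between cell types. Coordinates are from GENCODE M21 and promoter sequences from RefSeq (GRCm38.p6), which held 5 of the 7 members. Microarray and tissue data were not analysed here.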

Additional observations from a re-analysis of the deposited data

Results flagged for a closer look

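The difference between groups in a member differed between cell types of the same libraries in 19 cases, by a test of the difference itself (edgeR, library as a block, adjusted p under 0.05). The values are the effect in supporting cells minus that in epithelial cells, on the log2 scale, unless stated. For dKO XY against control XY they were -1.46 for *Krt18*, -1.86 for *Krt8*, 3.34 for *Krt19*, 4.48 for *Upk1b* and 2.77 for *Upk3b*. For control XX against control XY they were -0.75 for *Krt8*, 2.35 for *Krt7*, 5.62 for *Krt19*, 6.79 for *Upk1b* and 3.92 for *Upk3b*. For dKO XY against control XX they were -1.63 for *Krt18*, -2.28 for *Krt19*, -2.09 for *Krt7*, 1.44 for *Krt79*, -1.11 for *Krt8*, -2.31 for *Upk1b* and -1.15 for *Upk3b*. The value of *Krt79* is not among the 19 and is no test in epithelial cells, where the gene failed the filter on low counts. The epithelial cells of the groups lie in different subclusters, and in E2 alone the rises of *Krt8* and *Krt18* in dKO XY against control XY were 0.68 and 0.57, in place of 2.07 and 1.90. *Upk1b* was at -0.43 in E2, in place of -1.21. The 3 contrasts share libraries, and the control XY values of *Upk1b*, *Upk3b* and *Krt19* in supporting cells rest on 1, 7 and 9 UMIs.

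Between the subclusters S2 and S4 and Leydig cells the effect of dKO XY against control XY differed by -1.20 for *Krt18*, by -1.48 for *Krt7* and by -0.89 for *Krt8*. *Krt7* fell in S2 and S4 (-0.92 ± 0.24) and did not pass in Leydig cells (0.62 ± 0.21, adjusted p = 0.151, edgeR). *Krt8* and *Krt18* passed in neither, but in Leydig cells *Krt7*, *Krt8* and *Krt18* all passed with the replicate block (0.61, 1.33 and 1.66, adjusted p = 0.00352, 0.00512 and 0.00167, edgeR), and *Krt8* and *Krt18* also without likely doublets (1.70 and 1.84).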

How the results depend on the processing

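Counts of members called moved by at most 1.5 times in 162 cases against 32 that moved by more. Single members were labelled the same in 1465 cases, while 97 lost a call, 50 gained one, 34 moved without a call and 1 turned. The 1465 cases include members called in neither fit, also where the sign changed within 1 SE, so they are not a count of calls kept. Levels stayed within their SD in 440 cases and moved beyond it in 78. Without thinning, shares of cells lay within the interval of the thinned share in 10 cases and outside it in 74. Thinning can only lower a share, so these counts do not bear on the order of the groups. In interstitial cells the 5 calls of dKO XY against control XY became 3 with total UMIs as library size, without likely doublets and with the replicate block (2 to 5 with 1 library left out), and the 1 call against control XX became 2 with no filter on low counts, with all variable genes and with more than 1500 genes per cell (0 to 1 with 1 library left out). In Leydig cells the 2 calls became 6 with the replicate block, 6 with no filter, 5 without likely doublets and 3 to 5 with 1 library left out. In S2 and S4 the 4 calls became 2 with DESeq2 and 2 to 6 with 1 library left out, the lowest without the second control XY library. In epithelial cells E2 alone gave 0 in place of 3 calls in either contrast against control XY, where the share of all genes called is not given. In endothelial, pericyte, immune and germ cells together the 3 calls became 1 with DESeq2, 10 with no filter and 0 to 4 with 1 library left out. In supporting cells the 4 calls of dKO XY against control XY became 2 to 4 (2 without the second control XY library). Over all cells the 5 calls of dKO XY against control XY became 1 to 7 and the 5 against control XX 0 to 6. *Krt8* in germ cells, dKO XY against control XX, turned from -0.67 to 0.70 without likely doublets. The causes were not tested. Fewer libraries or cells entered the fits in E2 and with a library left out. In E2 the rises of *Krt8* and *Krt18* in dKO XY against control XY were also smaller, at 0.68 and 0.57 in place of 2.07 and 1.90.

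Deviations of samples with the same replicate number correlated at -0.47 to -0.12 between control XX and either XY group and at 0.12 to 0.30 between control XY and dKO XY (supporting, epithelial, interstitial and all cells), so the numbers are not taken to pair them, and the replicate block moved no count by over 1.5 times beyond the 3 and 6 above. Control XY held 30 and 43 epithelial cells and few UMIs of the uroplakins and *Krt19* in supporting cells, which limits what could be detected there.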
